A study of Mus musculus with 3 samples.

Results

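The genes described here build ribosomes: 48 genes of ribosome biogenesis and of RNA polymerase I (Pol I), taken by symbol, out of 11886 genes in the authors' deposited table. All 48 were present, with 63 transcripts, of which 60 are coding and 3 non-coding. The study used mT3-2D-GFP, a cell line from a mouse KPC pancreatic tumour (a genetically engineered model of pancreatic cancer) of C57BL/6 origin that carries a green fluorescent protein (GFP). The 3 groups were GFP-positive cells sorted from tumours that this line formed in wild-type (WT) C57BL/6 mice, GFP-positive cells sorted from its tumours in B6.CB17-Prkdcscid/SzJ (SCID) mice, which lack mature T and B cells, and the line itself, grown in DMEM with serum. RNA of 6 WT tumours and of 5 SCID tumours was combined in equal amounts before sequencing, so each group was 1 library from 1 line, the spread between tumours was not measured, and no ages, doses or times are given in the labels used here.

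Ribosome biogenesis begins in the nucleolus, where Pol I transcribes the long ribosomal RNA (rRNA) precursor from repeated rDNA. Small nucleolar ribonucleoproteins (snoRNPs) then modify and help to cleave the precursor, box C/D particles by methylation and box H/ACA particles by pseudouridylation. Separate sets of assembly factors, helicases and export adaptors turn the products into the small and the large ribosomal subunit. The pathway is known to follow growth signals such as MYC and mTOR, and it is a large part of the biosynthetic cost of proliferating cells, tumour cells among them.

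The table holds log2 fold changes between libraries and no level or count for any library, so values are given as differences and none can be given per library. The log base is not named in its header and was read as base 2. Gene values ran from -2.49 to 2.77, and since any shrinkage is not given in the sources used here, a fold on this scale may be smaller than the ratio of reads. A gene's value is the mean over its transcripts, and the threshold for a call, in either direction, was 2-fold, a log2 fold change of 1 or -1. With 1 library per group there was nothing to test against, so p-values are absent and replicate error is unknown. The WT and SCID comparisons with the line share the line's library, so their likeness is not independent evidence. Every gene value is from the authors' deposited table or is a mean of its values.

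All 48 genes were lower in the sorted tumour cells than in the cultured line, in both tumour pools. The median log2 fold change was -0.55 for the WT pool over the line and -0.58 for the SCID pool over the line, which are 1.46-fold and 1.5-fold lower. Values ran from -0.90 (Dkc1) to -0.11 (Ddx10) in the WT pool and from -0.93 (Bysl) to -0.06 (Ddx10) in the SCID pool. Over all genes the medians were -0.01 and -0.02, and 51.4% of genes were below 0 in the WT pool and 51.7% in the SCID pool.

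No member reached 2-fold. In the WT pool over the line, 0 of 48 were lower by 2-fold against 2.03% of all genes, and 0 were higher against 4.12%. In the SCID pool over the line, 0 of 48 were lower by 2-fold against 2.62% of all genes, and 0 were higher against 3.65%. At 1.5-fold, 22 of 48 were lower in the WT pool (8.36% of all genes) and 24 of 48 in the SCID pool (9.43% of all genes), and none was higher (11.3% and 11% of all genes). Of the 48, 45 lay in the lowest 25% of genes in each pool. In the lowest 10% of genes there were 28 of the 48 in the WT pool and 26 in the SCID pool. The shift was moderate in size and shared across the group.

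**Figure D1:**
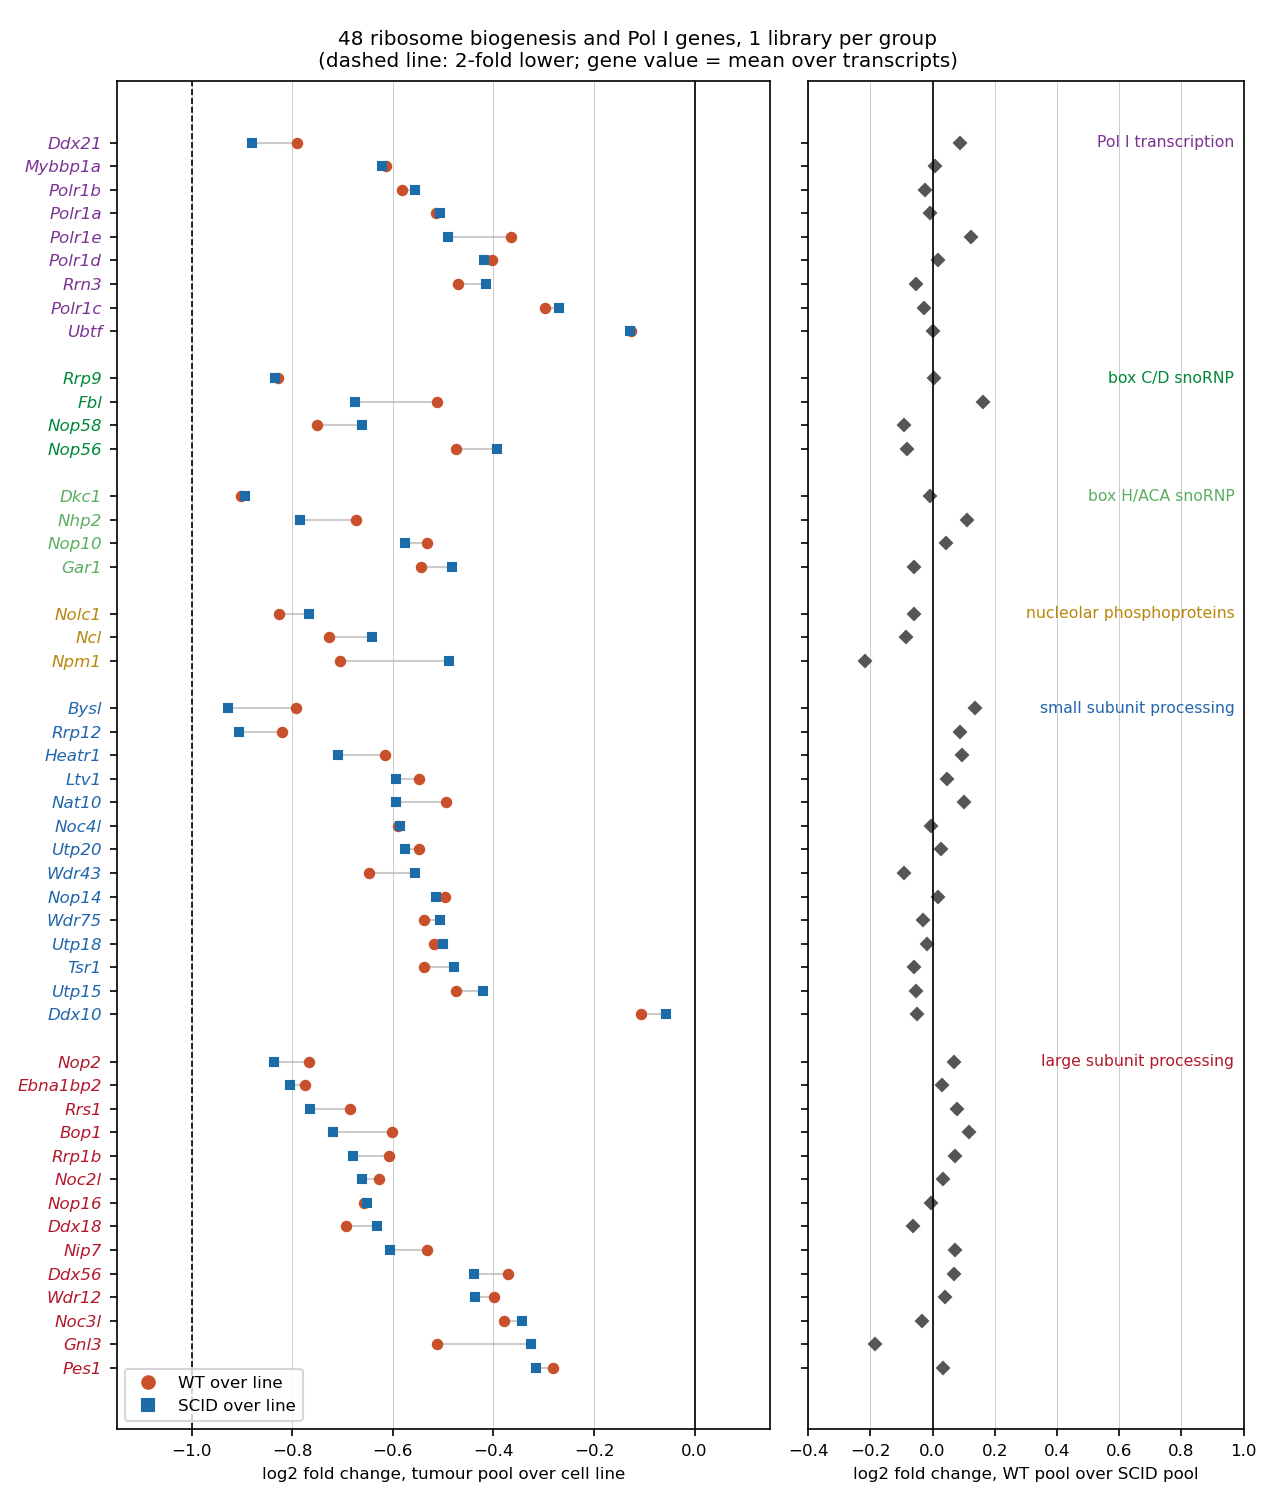
Log2 fold changes of the 48 genes, grouped by role and ordered by the SCID pool over the line; the left panel shows the WT pool (circles) and the SCID pool (squares) over the cell line, the right panel the WT pool over the SCID pool. Every point of the left panel lies between 0 and the dashed 2-fold line, and the points of the right panel lie between -0.22 and 0.16.

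**Figure D2:**
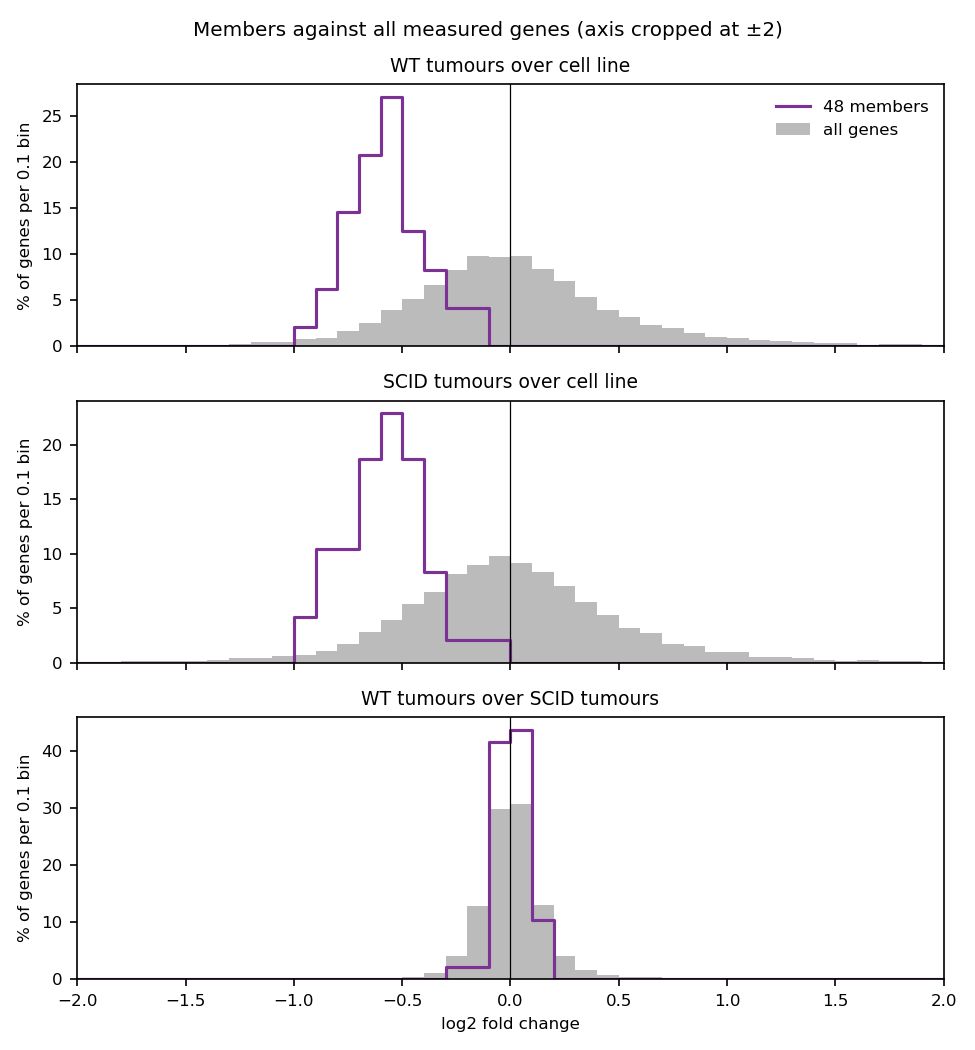
Share of genes per bin of 0.1 in log2 fold change, for the 48 members (line) and all 11886 genes (grey), in each comparison. In both comparisons with the cell line the members fill a narrow range left of 0, around medians of -0.55 (WT pool) and -0.58 (SCID pool), and in the WT pool over the SCID pool they sit around 0.

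Promoter sequences are shown for members at both ends of the range and for members that hold the E-box CACGTG, the letters bound by MYC and related factors. Each is from RefSeq on GRCm38.p6, written 5′ to 3′ on the gene's strand, with the E-box in capitals. The first lines give the 120 bases before the annotated start, chosen by the SCID pool over the line: Bysl and Dkc1 (lowest of those with an entry), Nop2 (the lowest that holds an E-box), and Ubtf and Ddx10 (nearest to 0).
Bysl, chr17:47611493-47611612, minus strand: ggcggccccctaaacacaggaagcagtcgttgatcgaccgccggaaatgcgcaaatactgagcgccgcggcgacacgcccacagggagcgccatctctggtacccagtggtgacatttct
Dkc1, chrX:75095734-75095853, plus strand: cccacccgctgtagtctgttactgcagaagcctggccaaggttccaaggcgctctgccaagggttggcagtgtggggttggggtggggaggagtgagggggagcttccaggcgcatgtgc
Nop2, chr6:125131763-125131882, plus strand: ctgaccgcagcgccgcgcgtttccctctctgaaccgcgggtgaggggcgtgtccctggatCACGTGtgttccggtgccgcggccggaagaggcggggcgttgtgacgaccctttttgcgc
Ubtf, chr11:102319097-102319216, minus strand: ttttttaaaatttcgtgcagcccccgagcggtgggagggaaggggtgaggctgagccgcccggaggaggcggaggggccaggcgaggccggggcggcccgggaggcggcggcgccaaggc
Ddx10, chr9:53248113-53248232, minus strand: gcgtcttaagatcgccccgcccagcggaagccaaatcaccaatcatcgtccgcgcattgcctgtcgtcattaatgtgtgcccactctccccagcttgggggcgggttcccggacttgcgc
The next 3 are the 30 bases around an E-box that lies just past the start, in Mybbp1a, Ltv1 and Utp20.
Mybbp1a, chr11:72441347-72441376, plus strand: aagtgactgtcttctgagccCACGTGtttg
Ltv1, chr10:13193092-13193121, minus strand: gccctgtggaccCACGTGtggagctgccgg
Utp20, chr10:88826765-88826794, minus strand: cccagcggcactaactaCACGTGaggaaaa

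The E-box was searched from 250 bases before to 50 bases after each start; its letters read the same on both strands. Of the 43 members with an entry, 9 held it (20.9%): Nop2, Mybbp1a, Ltv1, Utp20, Wdr43, Utp18, Tsr1, Rrn3 and Pes1. The share was 12% for the 9279 genes of the deposited table with an entry and 19.7% for 137 other ribosome biogenesis genes. In these shares a gene counted if any of its promoters held the letters. Counted per promoter, the share was 7.15% for all 32851 promoters in the RefSeq table, which is not on the same scale as the shares of genes. Members with and without the letters had like values. In the WT pool over the line the median log2 fold change was -0.55 for the 9 with an E-box and -0.54 for the 34 without, and in the SCID pool over the line it was -0.56 and -0.58. Counted from the RefSeq start, the E-box begins at -60 in Nop2 and at -215 and -48 in Rrn3, which holds 2 copies. For Mybbp1a the start in the deposited table lies downstream of the RefSeq start used here. A match to these letters is a description of sequence and no evidence of binding.

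The Pol I group, with 9 members, had the smallest shift of the 6 role groups, with a median log2 fold change of -0.47 in the WT pool over the line and -0.49 in the SCID pool over the line. Polr1a and Polr1b encode the largest and second-largest Pol I subunits, which form the catalytic centre. Polr1a was at -0.52 in the WT pool and -0.51 in the SCID pool, and Polr1b at -0.58 and -0.56. Both stood close to the median of the 48 genes in both pools.

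Polr1c and Polr1d encode a pair of subunits that Pol I shares with RNA polymerase III, and Polr1e a subunit specific to Pol I. Polr1c was at -0.30 in the WT pool over the line and -0.27 in the SCID pool over the line. Polr1d was at -0.40 and -0.42, and Polr1e at -0.37 and -0.49. As means these 3 subunit genes lay nearer to 0 than Polr1a and Polr1b, but for Polr1e this does not hold for its transcript NM_022811, at -0.84 and -0.89. Nor does it hold against Polr1a (-0.515 and -0.507) for the Polr1d transcript NM_009087, at -0.525 and -0.516. The other Polr1d transcript, NM_181730, was at -0.28 and -0.32.

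Rrn3, the initiation factor that brings growth-competent Pol I to the rDNA promoter, was at -0.47 in the WT pool over the line and -0.42 in the SCID pool over the line. Ubtf, the architectural factor that binds across rDNA, was at -0.13 in both pools, at percentile 39.1 of all genes in the WT pool and 39.2 in the SCID pool, so it was among the members nearest to 0. Its 4 transcripts ran from -0.21 to -0.07 in the WT pool and from -0.24 to -0.04 in the SCID pool. Ddx21, an RNA helicase of rDNA transcription and snoRNA function, was the lowest of the group at -0.79 in the WT pool over the line and -0.88 in the SCID pool. Mybbp1a, a Myb-binding nucleolar protein described as a regulator of Pol I, was at -0.61 and -0.62. The group thus spanned most of the range of the 48 genes, with Ubtf and Polr1c at its upper end.

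The 4 box C/D genes had a median log2 fold change of -0.63 in the WT pool over the line and -0.67 in the SCID pool over the line. Fbl encodes fibrillarin, the methyltransferase of the particle, and was at -0.51 in the WT pool and -0.68 in the SCID pool. Nop58, a core scaffold protein, was at -0.75 and -0.66. Its partner Nop56 was at -0.47 and -0.39 as a mean of 2 transcripts that differed: the coding NM_024193 was at -0.78 and -0.82, and the non-coding NR_149733 at -0.16 and 0.04. On the coding transcript Nop56 therefore stood among the lower members. Rrp9, a protein of the snoRNP that guides early cleavage of the precursor, was at -0.83 in the WT pool and -0.84 in the SCID pool.

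The 4 box H/ACA genes, which encode all the core proteins of that particle, had a median log2 fold change of -0.61 in the WT pool over the line and -0.68 in the SCID pool over the line. Dkc1 encodes dyskerin, the pseudouridine synthase, whose human counterpart is mutated in dyskeratosis congenita. It was at -0.90 in both pools, 1.87-fold lower in the WT pool and 1.86-fold lower in the SCID pool, which made it the lowest member in the WT pool. Nhp2 was at -0.67 and -0.79, Nop10 at -0.53 and -0.58, and Gar1 at -0.54 and -0.48. The catalytic subunit thus stood lower than its 3 partners in both pools, by an amount that was not tested. Dkc1 lies on chromosome X from 75095854 to 75109776 in the authors' deposited table, on the plus strand.

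The 3 abundant nucleolar phosphoproteins had a median log2 fold change of -0.73 in the WT pool over the line and -0.64 in the SCID pool over the line. Ncl encodes nucleolin, which binds the rRNA precursor, and was at -0.73 and -0.64. Nolc1, a chaperone of snoRNPs that also contacts Pol I, was at -0.83 and -0.77. Npm1 encodes nucleophosmin, a multivalent scaffold of the granular nucleolus and a chaperone of assembly, and was at -0.71 and -0.49. Its 3 transcripts lay between -0.76 and -0.65 in the WT pool, but in the SCID pool NM_001252261 was at -0.77 while NM_001252260 and NM_008722 were at -0.37 and -0.33. Npm1, Ncl and Nolc1 were the lowest group by median in the WT pool, except that with coding transcripts alone the box C/D group was lower, at -0.77.

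The 14 genes of small subunit processing had a median log2 fold change of -0.54 in the WT pool over the line and -0.57 in the SCID pool over the line. Its lowest members were Bysl and Rrp12. Bysl, the counterpart of a yeast factor of late small subunit precursors, was at -0.79 in the WT pool and -0.93 in the SCID pool. Rrp12, which in yeast takes part in export of the subunits, was at -0.82 and -0.91. Of the other late factors, Ltv1 was at -0.55 and -0.59, and Tsr1 at -0.54 and -0.48. Bysl lies on chromosome 17 from 47599331 to 47611492 and Rrp12 on chromosome 19 from 41862851 to 41896153, both on the minus strand.

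Heatr1, Utp15, Wdr43 and Wdr75 encode members of the complex that binds the start of the nascent precursor and is linked to Pol I transcription. Heatr1 was at -0.62 in the WT pool over the line and -0.71 in the SCID pool over the line, Wdr43 at -0.65 and -0.56, Wdr75 at -0.54 and -0.51 and Utp15 at -0.48 and -0.42. Other proteins of the small subunit processome lay in the same band: Utp18 at -0.52 and -0.50, Utp20 at -0.55 and -0.58, Nop14 at -0.50 and -0.51 and Noc4l at -0.59 in both pools. Nat10, the RNA acetyltransferase of small subunit rRNA, was at -0.49 and -0.59. Ddx10, a helicase whose yeast counterpart releases a snoRNA from the precursor, stood apart from them at -0.11 and -0.06, the member nearest to 0 in both pools.

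The 14 genes of large subunit processing had a median log2 fold change of -0.60 in the WT pool over the line and -0.64 in the SCID pool over the line. Pes1, Bop1 and Wdr12 encode the 3 proteins of the PeBoW complex, needed for processing of large subunit rRNA, and they did not share a value. Bop1 was at -0.60 in the WT pool and -0.72 in the SCID pool, and Wdr12 at -0.40 and -0.44. Pes1 was at -0.28 and -0.32, the highest of the group. The Wdr12 value averages NM_021312 at -0.61 and -0.64 and NM_001199060 at -0.19 and -0.24, so in the WT pool the order of Bop1 and Wdr12 rests on which transcript is read.

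The lowest large subunit genes were Nop2, a methyltransferase of large subunit rRNA, at -0.77 in the WT pool over the line and -0.84 in the SCID pool over the line, and Ebna1bp2, whose yeast counterpart assembles early large subunit precursors, at -0.77 and -0.81. Rrs1, in yeast a factor that loads an rRNA-protein particle on the precursor, was at -0.69 and -0.77. Rrp1b was at -0.61 and -0.68, Nop16 at -0.66 and -0.65, Noc2l at -0.63 and -0.66 and Nip7 at -0.53 and -0.61. Noc3l, the relative of Noc2l, was nearer to 0 at -0.38 and -0.34. The helicase gene Ddx18 was at -0.69 and -0.63, and the helicase gene Ddx56 at -0.37 and -0.44. Gnl3 encodes nucleostemin, a nucleolar GTPase of stem and tumour cells, and was at -0.51 in the WT pool and -0.33 in the SCID pool.

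Transcripts of the same gene did not always share a value. Of the 63 member transcripts, 62 were below 0 in the WT pool over the line and 62 in the SCID pool over the line. The exceptions were NM_001285800 of Polr1e, at 0.11 in the WT pool, and NR_149733 of Nop56, at 0.04 in the SCID pool. The other Polr1e transcript, NM_022811, was at -0.84 in the WT pool and -0.89 in the SCID pool. The pooled SD between transcripts of a member was 0.24 for the WT pool over the line and 0.27 for the SCID pool over the line, which describes transcripts and not animals. For Polr1e and Nop56 the mean is therefore a poor summary.

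**Figure D3:**
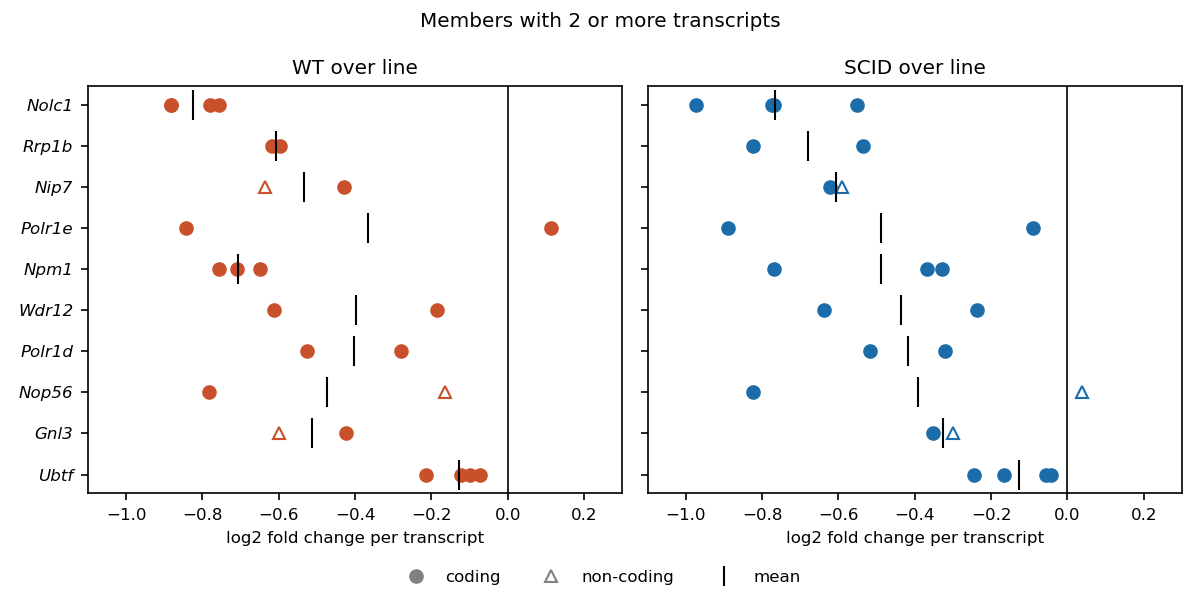
Log2 fold change of each transcript over the cell line, for the 10 members with 2 or more transcripts, in the WT pool (left) and the SCID pool (right); filled circles are coding transcripts, open triangles non-coding ones and the bar is their mean. Polr1e and Nop56 are spread most widely, with 1 transcript each near or past 0, while the transcripts of Nolc1, Npm1 and Rrp1b all lie below 0.

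The WT and SCID pools were close to each other in these genes. The median log2 fold change of the WT pool over the SCID pool was 0.007 over the 48 genes, against 0.004 over all genes, and 22 of 48 were below 0, against 48.5% of all genes. No member reached 2-fold in either direction, where 0.303% of all genes were higher and 0.0168% lower, and none reached 1.5-fold (1.1% higher and 0.177% lower). Of the members, 41 lay within 0.1 of 0 (85.4%), against 60.5% of all genes. No test of this difference was possible with 1 library a group. The closeness was not particular to the 48, whose SD between genes was 0.079, against 0.171 for all genes. Among lists described below it was 0.061 for tRNA synthetases, 0.071 for cell cycle genes and 0.086 for mitochondrial ribosomal proteins. Cytosolic ribosomal proteins had 0.089 and 168 other ribosome biogenesis genes 0.102.

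The highest values for the WT pool over the SCID pool were those of Fbl at 0.16, Bysl at 0.14, Polr1e at 0.12, Bop1 at 0.12 and Nhp2 at 0.11. The lowest were Npm1 at -0.22 and Gnl3 at -0.19, followed by Wdr43 and Nop58 at -0.09 each. Npm1 is a mean of -0.39, -0.38 and 0.12 over its transcripts. Gnl3 is a mean of -0.07 on its coding and -0.30 on its non-coding transcript. Nip7, at 0.07 as a mean, was at 0.19 on its coding transcript, and transcripts of Nolc1 ran from -0.33 to 0.22. The order of these genes therefore rests on which transcript is read. In the WT pool over the SCID pool, values moved with GC content: Spearman's rho between transcript GC content and the log2 fold change was 0.50 over the 48 members and 0.38 over 11654 genes, given as a description of genes that share 2 libraries. After a trend in GC content and length was removed, 12 of the 48 members lay on the other side of 0, so the direction of single members between the tumour pools is not given weight here. For the pools over the line the same correlation over the members was -0.08 (WT) and -0.29 (SCID), and none changed side.

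The rest of the pathway was lower too, but less evenly. Across 5 further lists of ribosome biogenesis genes, 168 genes that are not among the 48, the median log2 fold change was -0.38 in the WT pool over the line and -0.39 in the SCID pool over the line. Below 0 were 150 (89.3%) and 147 (87.5%), against 51.4% and 51.7% of all genes. None reached 2-fold, lower (2.03% and 2.62% of all genes) or higher (4.12% and 3.65%). The 168 include a mixed list of other Pol I factors, described below, with 15 of 23 below 0 in each pool, which adds to the unevenness. Factors of snoRNP assembly and RNase MRP had medians of -0.50 in both pools. Pop1, a protein of RNase MRP, was lowest at -0.89 in the WT pool and -0.98 in the SCID pool, followed by Pop5 at -0.73 and -0.76, and Tgs1 was highest at -0.01 and 0.07. The RNA exosome, which trims rRNA precursors, had medians of -0.44 and -0.43, with Exosc2 at -0.88 and -0.95, Exosc7 at -0.78 in both pools and Zcchc7 at 0.23 and 0.28.

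Other small subunit factors had a median log2 fold change of -0.36 in the WT pool over the line and -0.39 in the SCID pool over the line, with 49 and 47 of 51 below 0. Lyar, a nucleolar protein of growing cells, was lowest at -0.97 in the WT pool and -0.94 in the SCID pool, and Utp14b was highest at 0.44 and 0.24. Other large subunit factors had medians of -0.40 and -0.38, with 53 of 58 below 0 in each pool. Pwp1 was lowest at -0.78 and -0.85, and Las1l at 0.26 and 0.31 and Tex10 at 0.22 and 0.37, which encode partners in a complex of rRNA spacer processing, were highest.

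Other Pol I factors lay nearer to 0, with a median of -0.23 in the WT pool over the line and -0.11 in the SCID pool over the line, and 15 of 23 below 0 in each. The list is mixed: beside Pol I subunits and selectivity factors it holds genes of rDNA silencing, subunits named for RNA polymerase II and an antisense gene. Its median is therefore not that of Pol I subunits alone. Tcof1, the treacle protein that recruits Pol I factors, was at -0.67 and -0.78, Nol11 at -0.53 and -0.80, and Znrd1, a Pol I subunit gene, at -0.54 and -0.49. Baz2a, part of a complex that silences rDNA, was at 0.38 and 0.32. Taf1a, a promoter selectivity factor, was at 0.29 and 0.32 and Sirt7 at 0.32 and 0.12. Znrd1as, a gene named as antisense to Znrd1, was at -0.36 and -0.82. Taf1b, another selectivity factor gene, was at -0.32 and 0.25, and its value of -0.57 for the WT pool over the SCID pool was the lowest of the list.

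RNA polymerase III genes had a median log2 fold change of -0.17 in the WT pool over the line and -0.13 in the SCID pool over the line, with 18 of 22 below 0 in each. Gtf3a, the factor for the small rRNA that this polymerase makes, was at -0.82 and -0.84. Polr3g was at -0.81 in both pools and its paralog Polr3gl at 0.39 and 0.41. RNA polymerase II subunits had medians of -0.27 and -0.24, or -0.14 and -0.07 after the GC and length trend was removed, and the largest subunit gene, Polr2a, was the highest at 0.76 and 0.65. Of the 8 RNA polymerase II genes, 7 were below 0 in each pool. Most genes of both polymerases were thus below 0, with medians nearer to 0 than that of the 48 genes, a difference that was not tested.

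Regulators of the pathway did not share a direction. The 32 measured had a median log2 fold change of 0.06 in the WT pool over the line and 0.10 in the SCID pool over the line. Myc was at -0.17 in the WT pool and -0.07 in the SCID pool, and Mtor at -0.01 and -0.02. Past 2-fold in both pools were Ddit4, an inhibitor of mTOR signalling induced by stress and hypoxia, at 1.5 in the WT pool and 1.60 in the SCID pool, and Mxi1, a MYC antagonist, at 1.02 and 1.14. Mxd1, a relative of Mxi1, was at 1.05 in the WT pool and 0.83 in the SCID pool. Deptor, an mTOR-binding inhibitor, was at -0.71 in the WT pool and -1.01 in the SCID pool, and Eif4ebp1 at -0.61 and -0.62. Mxd3, another of the family, was at -0.47 and -0.66. Mxd4, also of that family, was at 0.93 and 0.90. Myc, Mtor and Mxd4 were named after their values were seen.

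Lists of similar function gave a scale for these values. Cytosolic aminoacyl-tRNA synthetases had a median log2 fold change of -0.50 in the WT pool over the line and -0.55 in the SCID pool over the line, and mitochondrial ribosomal proteins -0.46 and -0.48, both near the 48 genes. All 78 mitochondrial ribosomal proteins were below 0 in both pools, with 66 (WT) and 69 (SCID) in the lowest 25% of genes. Of 20 tRNA synthetases, 20 (WT) and 19 (SCID) were below 0, with 17 in the lowest 25% in each pool. Cytosolic ribosomal proteins, the parts that this pathway assembles, were closer to 0 at -0.22 and -0.21 over 79 genes, with 76 and 73 below 0. Of the 79, Rps19bp1 encodes a binding partner and no ribosomal protein and Rpl37rt is a retrotransposed copy, and how reads shared with the many copies of these genes were counted is not given in the sources used here. After the GC and length trend was removed, cytosolic ribosomal proteins were at -0.04 and -0.02, while the 48 genes stayed at -0.57 and -0.55. Mitochondrial ribosomal proteins were then at -0.32 and -0.35, and tRNA synthetases at -0.44 and -0.48, so the mitochondrial list lay farther from the 48. Cell cycle genes were lower, with a median of -1.04 in the WT pool and -1.1 in the SCID pool and 16 and 18 of 30 lower by 2-fold. All 30 were below 0 in both pools, with 27 in the lowest 25% of genes in each. A shift shared by all genes of a list was thus not particular to the 48. Proliferation genes thus moved with the ribosome biogenesis genes, and their part in the result was not tested.

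**Figure D4:**
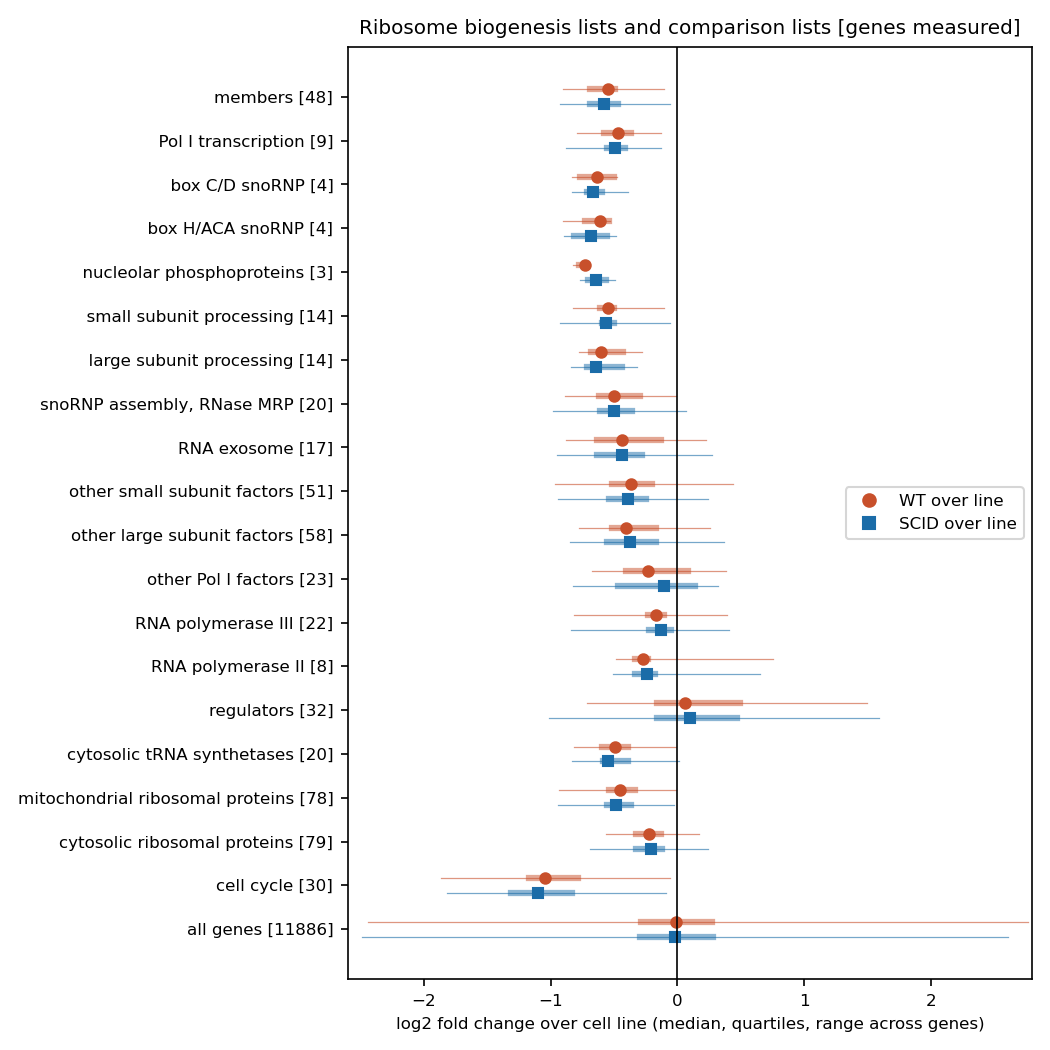
Log2 fold change over the cell line for the 48 members, their 6 role groups and other lists, in the WT pool (circles) and the SCID pool (squares); points are medians, thick bars quartiles and thin lines the range across genes, with the number of genes in brackets. Most ribosome biogenesis lists, tRNA synthetases and mitochondrial ribosomal proteins lie left of 0. Other Pol I factors, cytosolic ribosomal proteins and the regulators lie nearer to 0, and cell cycle genes lie lowest, at -1.04 and -1.1.

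The transcript of the precursor itself did not share the direction of the genes that make it. Rn45s (NR_046233), the annotated rRNA precursor, was at 0.68 in the WT pool over the line and 0.72 in the SCID pool over the line, and at -0.05 in the WT pool over the SCID pool. It was named after its value was seen. Libraries were made from poly(A) RNA, and rDNA is repeated, so this value depends on how much rRNA passed the selection and on how repeated reads were assigned, neither of which is given in the sources used here.

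Most of the few measured markers of other cells were higher in the tumour pools than in the line. Which cells made the RNA of these markers was not measured. Of 16 markers of macrophages and monocytes 4 had values, which in the WT pool over the line ran from 0.77 (Mrc1) to 2.77 (Apoe), and ran from -0.06 (Mrc1) to 1.02 (Apoe) in the SCID pool over the line. The only measured fibroblast marker of 12, Col1a1, was at 1.90 and 2.61. The 3 measured of 10 endothelial markers ran from 0.93 (Eng) to 1.66 (Flt1) in the WT pool and from 0.80 (Kdr) to 1.63 (Flt1) in the SCID pool. Of 12 T and NK cell markers only Foxp3 had a value, 0.09 and 0.10, and none of 5 B cell markers did. All 10 markers of pancreatic tumour epithelium had values, from -0.99 (Krt7) to 1.59 (Epcam) in the WT pool and from -1.18 (Krt7) to 1.28 (Sox9) in the SCID pool; as the table holds no levels, these do not show how strongly any marker was expressed. In pooled RNA, fewer cells of a type and less RNA per cell cannot be told apart. The tumour cells were dissociated and sorted, for which the labels give no matching step for the line, so growth in a mouse and handling cannot be told apart either. The macrophage markers differed between the tumour pools, with a median of 1.04 in the WT pool over the SCID pool, where the 48 genes had a median of 0.007. The part of other cells in the values over the line was not tested.

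Some members share their position with another gene. Of the 48 loci, 10 overlap a gene on the opposite strand in the authors' deposited table, a share that was not counted for all loci. Of the 11 genes they overlap, 7 were below 0 in the WT pool over the line (51.4% of all genes) and 6 in the SCID pool over the line (51.7% of all genes). The lowest were Mpp1, which overlaps Dkc1, at -0.86 and -1.08, and Ccnd3, which overlaps Bysl, at -0.51 and -0.63. The highest in both pools was Mroh1, which overlaps Bop1, at 0.67 and 0.62. Also above 0 were Scx, which overlaps Bop1 too, at 0.40 and 0.32, Glt8d1, which overlaps Gnl3, at 0.25 and 0.47, and Fbxo10, which overlaps Polr1e, at 0.21 and 0.29. These overlapping genes were named after their values were seen. The library kit keeps strand, but whether counting used it is not given in the sources used here, so reads of such pairs may not be fully separate. On other measures the members resembled the rest: median transcript GC content was 50.3% for the 48 and 50.4% for all genes, and median length 2858 and 2918 bases. Of the 48, 8 lay on chromosome 11 (16.7%, against 8.14% of all genes), among them Npm1, Ubtf and Pes1.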

How the data were processed

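RNA-seq libraries of the cultured line and of GFP-positive cells sorted from WT and from SCID tumours were compared, 1 library per group, of pooled RNA for the tumours. The authors deposited log2 fold changes for 17910 RefSeq transcripts, with no counts or levels, so the depth of each library is unknown. Per the submitters' processing notes BWA, Partek, R 3.5.1, DESeq2 1.20.0 and mm9 were used, with no role or order given; the sources used here name no shrinkage or row filter. In all 17910 rows the last column was the difference of the other 2 (tolerance 1e-12), so it was read as SCID over WT and its sign was turned. Member coordinates (with the end taken as the stop minus 1) match GRCm38: 45 of 48 starts lay within 1000 bases of a RefSeq GRCm38.p6 table.

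Values were averaged over transcripts to 11886 genes (8288 with 1 transcript) with pandas 2.3.3 and NumPy 2.4.6. Members were matched by symbol. The members and lists were chosen with earlier results of these data known. Calls were at 2-fold, counts and medians were set beside all genes, and no test was made. Genes outside the 48 that are given values are among the 2 highest and 2 lowest of each list in a comparison, apart from those said to be named after their values were seen. GC content and length came from GENCODE vM21 transcripts for 62 of 63 member transcripts. Promoters came from the RefSeq table on GRCm38.p6 for 43 of 48 members, and for 39 of these the start bases were found in a GENCODE transcript. Counting and trend removal were tested on simulated data.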

Additional observations from a re-analysis of the deposited data

How the results depend on the processing

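Alternatives were the median or the farthest transcript per gene, coding transcripts, genes with 1 transcript, 1.5-fold and 4-fold thresholds, centring on the median gene, leaving out the farthest member, and a fit that takes out GC content and transcript length. Every measured member stayed below 0 over the line in both pools under each of these. The median over members stayed between -0.61 and -0.53 for the WT pool over the line, between -0.62 and -0.55 for the SCID pool over the line and between 0.002 and 0.02 for the WT pool over the SCID pool. The number lower by the threshold, 0 at 2-fold, was 22 (WT over line) and 24 (SCID over line) at 1.5-fold, and 1 after the GC and length trend was removed (Rrp12 at -1.03 in the SCID pool over the line). With coding transcripts Nop56 was at -0.82 in the SCID pool over the line. A filter on low values was not run, since the table holds no levels. No paired analysis was possible because each group has 1 library. Unknown depth and the lack of replicates limit every value.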

Other observations

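Small non-coding RNAs, most of them snoRNAs, had values in the table although the libraries were made from poly(A) RNA. All 15 measured snoRNA and scaRNA genes were below 0 in the WT pool over the SCID pool, against 48.5% of all genes, with a median log2 fold change of -0.29 in the authors' deposited table and a range of -0.63 to -0.05. Over the line, 8 of 15 were above 0 in the WT pool (median 0.03) and 13 of 15 in the SCID pool (median 0.40). Snord15b, a guide RNA of the box C/D class, was highest in the SCID pool over the line at 1.23 and stood at 0.72 in the WT pool over the line. Rmrp, the RNA of RNase MRP, was at -0.41 in the WT pool over the SCID pool, Rpph1, the RNA of RNase P, at -0.43, and Terc, the telomerase RNA that also binds dyskerin, at -0.38. Nearly all of these RNAs are shorter than the transcripts that the selection was made for, and no values on recovery of short RNAs by library were at hand. The genes were chosen after their values were seen, and no test was possible.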
